A study of Mus musculus with 18 samples.

Results

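Glycolysis and the transcriptional response to low oxygen were described through 35 genes, among 32285 genes in each of the 10 expression matrices. The genes were chosen by symbol, with earlier results of these data known, and which values led to the list is not recorded. The tests below therefore describe these libraries and are not independent evidence for the list. The rule takes every row with a listed symbol and has no threshold. All 35 symbols were found, on 36 rows. The additional row is a second Aldoa entry with 7 UMIs (unique molecular identifiers, each standing for 1 captured mRNA molecule) in all cells, and it was not used. The list holds 4 transporters of glucose and lactate, 16 enzymes of the glycolytic chain, 3 regulators of glycolytic and pyruvate flux, the factor Hif1a with 2 oxygen-sensing hydroxylases, and 9 other genes known to respond to hypoxia.

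The samples were back skin of mice after surgery, measured as droplet-based single-cell RNA-seq (10x Genomics 3′ chemistry). Every mouse, controls included, had an incision near the tail and a subcutaneous path opened towards the neck. Expanded mice then received an expander hydrogel under the skin near the neck, whereas control mice received none. Live cells, negative for the dye DAPI, were sorted at day 1, day 2 and day 4. Control and expanded skin each gave 2 libraries at day 1, 2 at day 2 and 1 at day 4, and the day and sequencing round pair the 5 control with the 5 expanded libraries. The mice of an arm and round were pooled in 1 tube, so a library is a pool of animals, and 8 of the 10 libraries carried hashtags that tell the mice apart. Strain, sex and age of the mice are not given in the sources used here.

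Glycolysis splits glucose into pyruvate, with a small yield of ATP that needs no oxygen, and lactate dehydrogenase turns pyruvate into lactate, which leaves the cell through monocarboxylate transporters. When oxygen is scarce, the prolyl hydroxylases of the EGLN family no longer mark the protein HIF1A for degradation. Stable HIF1A then binds DNA with its partner ARNT and raises the transcription of glucose transporters, most glycolytic enzymes and the hydroxylases themselves. Hif1a mRNA is not the main point of this control, and in leukocytes the same genes also respond to activation. Healthy dermis and epidermis are only moderately oxygenated, and wounds are a classical setting of the response.

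The core letters of the hypoxia response element, ACGTG or GCGTG, stand in many promoters of this list. As examples, 5 windows of genes described below are shown, and Eno1, Pkm and Gapdh are not among them. Each window holds the 250 bases before a RefSeq transcription start in GRCm38.p6, written 5′ to 3′ on the gene's strand, with ACGTG and its reverse complement CACGT in capitals. None of the 5 windows overlaps an exon of GENCODE M21, that is, each has 0 exonic bases. Ldha (lactate dehydrogenase A, chr7:46845554-46845803, plus strand), Pgk1 (phosphoglycerate kinase, chrX:106186850-106187099, plus strand) and Pgam1 (phosphoglycerate mutase, chr19:41911621-41911870, plus strand) were higher after expansion in several cell classes. Hk2 (hexokinase, chr6:82774455-82774704, minus strand) was lower in 2 classes, and Mif (chr10:75860278-75860527, minus strand) was higher in 6 classes with neither ACGTG nor CACGT in its window.
Ldha: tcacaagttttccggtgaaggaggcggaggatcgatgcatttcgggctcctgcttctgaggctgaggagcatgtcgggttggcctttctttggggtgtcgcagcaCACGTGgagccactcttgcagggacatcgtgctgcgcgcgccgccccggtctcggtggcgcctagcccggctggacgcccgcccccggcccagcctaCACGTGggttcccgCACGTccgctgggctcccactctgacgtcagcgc
Pgk1: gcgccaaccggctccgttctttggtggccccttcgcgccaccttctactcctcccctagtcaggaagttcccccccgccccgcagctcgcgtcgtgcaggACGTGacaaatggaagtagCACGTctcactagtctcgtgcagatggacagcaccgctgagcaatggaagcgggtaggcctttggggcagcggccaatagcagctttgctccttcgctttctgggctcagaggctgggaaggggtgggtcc
Pgam1: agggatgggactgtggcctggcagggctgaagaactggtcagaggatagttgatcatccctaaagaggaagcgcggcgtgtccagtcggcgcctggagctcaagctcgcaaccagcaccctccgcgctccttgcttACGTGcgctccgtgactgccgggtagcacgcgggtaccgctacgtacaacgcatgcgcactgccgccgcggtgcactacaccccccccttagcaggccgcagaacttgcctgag
Hk2: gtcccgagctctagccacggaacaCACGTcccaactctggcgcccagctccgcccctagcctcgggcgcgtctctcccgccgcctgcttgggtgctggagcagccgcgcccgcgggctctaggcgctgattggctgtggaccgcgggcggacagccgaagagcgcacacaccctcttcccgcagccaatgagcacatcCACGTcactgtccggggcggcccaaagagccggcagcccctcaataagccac
Mif: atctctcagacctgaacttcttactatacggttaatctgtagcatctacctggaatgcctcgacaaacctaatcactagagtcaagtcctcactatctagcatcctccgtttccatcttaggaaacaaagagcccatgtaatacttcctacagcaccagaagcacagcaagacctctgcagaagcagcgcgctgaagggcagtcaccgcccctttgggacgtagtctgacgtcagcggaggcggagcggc

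The Ldha window shown holds 5 matches to ACGTG on either strand, where the palindrome CACGTG counts once on each strand and stands there 2 times. A second Ldha start in the table, with the window chr7:46846832-46847081, has 0 matches to ACGTG and 1 to GCGTG. Of the enzymes not shown, Eno1 and Pkm were called higher in 7 classes each, Gapdh in 6, and Tpi1 and Aldoa in 3. Eno1, at each of its starts, Gapdh and Tpi1 have 0 matches to ACGTG. Eno1 and Gapdh do hold GCGTG, and Tpi1 has 0 matches to it as well. Pkm and Aldoa have 1 match to ACGTG at some of their starts and 0 at another. Over the 31 members found in the promoter table, ACGTG occurred on either strand in 18 (58.1%), beside 18.5% of all genes in the table. Counted by start site, it occurred in 21 of 44 member windows (47.7%) and in 5444 of 32851 windows of the same length (16.6%). The related letters GCGTG occurred in 23 of 44 member windows (52.3%), beside 28.2% of all windows. Slc2a3, Bnip3l, Ndrg1 and Ero1l had no entry. A match is only a run of letters, and binding was not measured.

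After removal of barcodes with over 10% mitochondrial UMIs and of called doublets, 45488 cells remained, and the libraries had held between 17726739 and 75470722 UMIs. Cells were clustered without the members and without other pathway genes, and 32 of 40 clusters were given a class name by marker genes. The classes are written with the ending "-like", and 8 clusters with 6025 cells stayed unnamed. Across libraries, 263 barcode sequences were shared. Levels are CPM, the count of a gene scaled to a common total over the UMIs of a class in a library. They carry no length correction, so only levels of the same gene are compared. Differences were tested with edgeR's quasi-likelihood test over all genes of a class, with day as a term, and a gene is called when its Benjamini-Hochberg adjusted p is under 0.05. The p-values of these tests measure the spread between libraries. Log2 fold changes are expanded over control.

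Slc2a1, Slc2a3 and Slc16a3 had their highest mean levels in neutrophil-like cells. Slc2a1, the basal glucose carrier GLUT1, had a mean of 154 CPM ± 57.5 (SD, n = 3 control libraries) and 138.5 ± 20.9 (SD, n = 5 expanded libraries) in neutrophil-like cells. Basal keratinocyte-like cells followed with 90.5 ± 6.76 and 96.2 ± 14.8 (SD, n = 5 each), a level within the spread of the mast-like mean of 88.2 ± 57.3 (SD, n = 5 control libraries). The control neutrophil-like level rests on 31 UMIs of Slc2a1. Fibroblast-like cells had the lowest control mean of the 18 named classes that had a control library, at 12.15 CPM. Slc2a3, the high-affinity carrier GLUT3, averaged 275 ± 64.0 CPM in control neutrophil-like cells, 102.5 ± 63.1 in control mast-like cells, 64.5 ± 10.4 in control dendritic-like cells, and 1.34 CPM in control basal keratinocyte-like cells. Slc16a3, the lactate exporter MCT4, averaged 894 ± 153 CPM in control and 688 ± 134 in expanded neutrophil-like cells. The next class for Slc16a3, macrophage- or monocyte-like cells, averaged 32.85 ± 13.4 CPM in the control libraries, and dendritic-like cells 32.8 ± 7.77. Slc16a1, the monocarboxylate carrier MCT1, was instead highest in fibroblast-like cells among classes with control libraries, at 98.6 ± 13.0 CPM in control and 123 ± 21.9 in expanded libraries (SD, n = 5 each), and its control level in melanocyte-like cells, 90.8 ± 28.9, lay within that spread. The 1 library with enough sebaceous gland-like cells, an expanded one, had 176 CPM of Slc16a1. The classes come from the same cells, so these orders carry no test.

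**Figure D1:**
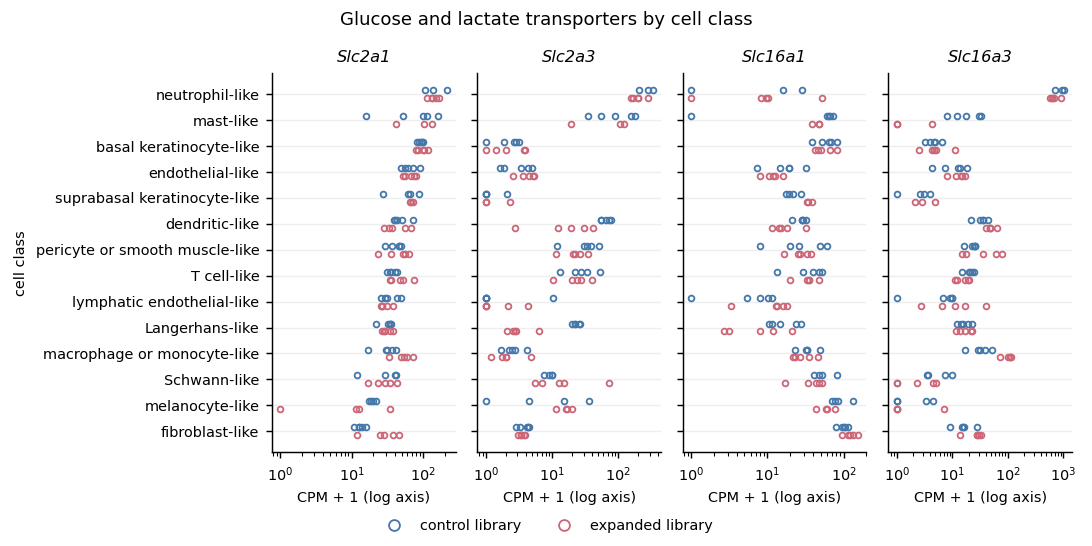
Levels of the 4 transporters by cell class, as CPM + 1 on a logarithmic axis, with 1 point per library, control libraries in blue and expanded libraries in red, for 14 classes. Neutrophil-like cells sit highest for Slc2a1, Slc2a3 and Slc16a3, and of the classes drawn fibroblast-like cells have the highest mean of Slc16a1.

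Other members also differed by class. Mif, which encodes the secreted cytokine macrophage migration inhibitory factor, averaged 736 ± 32.9 CPM (SD, n = 4) in control suprabasal and 571 ± 37.1 (SD, n = 5) in control basal keratinocyte-like cells, and 26.7 CPM in control neutrophil-like cells. Ndrg1, a stress-response gene linked to differentiation, and Ero1l, an oxidase of the endoplasmic reticulum, were highest in mast-like cells, at 1731 ± 472 and 623 ± 215 CPM (SD, n = 5 control libraries). Adm, the vasodilator peptide adrenomedullin, had its highest mean in lymphatic endothelial-like cells, at 196 ± 130 CPM in control and 251 ± 146 in expanded libraries. Ddit4, the mTORC1 inhibitor REDD1, averaged 320 ± 22.03 CPM in control pericyte- or smooth muscle-like cells. Car9, the carbonic anhydrase used as a marker of severe hypoxia, had no class mean above 6.77 CPM in either arm among the classes with at least 20 cells in a library. In control libraries Hif1a was highest in pericyte- or smooth muscle-like cells, at 347 ± 73.4 CPM, and endothelial-like, mast-like and T cell-like cells, at 324 ± 56.0, 315 ± 62.9 and 308 ± 70.2 CPM, lay within that spread (SD, n = 5 control libraries each).

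The number of members called with expansion differed across the 11 classes that could be tested, as did the share of all genes called. Such counts do not test whether the change itself differed between classes. In fibroblast-like cells, 14 of 33 tested members were higher and 3 lower, beside 17.7% of all tested genes higher and 17.6% lower. Macrophage- or monocyte-like cells had 12 of 32 higher and 2 lower, beside 9.92% and 12.6% of all genes. In lymphatic endothelial-like cells 8 of 24 were higher and 1 lower, beside 5.8% and 6.01%. Basal keratinocyte-like cells had 8 of 33 higher and 1 lower, beside 7.31% and 7.36%. Endothelial-like cells had 7 of 32 higher and 3 lower, beside 5.5% and 6.66%. Pericyte- or smooth muscle-like cells had 6 of 29 higher and 3 lower, beside 8% and 11.3%.

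Neutrophil-like and mast-like cells had too few libraries to be tested. Dendritic-like cells had 2 of 29 higher and 2 lower, beside 8.67% and 9.8% of all genes. Langerhans-like cells had 0 of 27 higher (edgeR, with 1 by DESeq2 and 8 at an unadjusted p under 0.05 in either direction) and 2 lower, beside 1.48% and 2.87%. In T cell-like, Schwann-like and melanocyte-like cells edgeR called 0 of 28, 0 of 24 and 0 of 20 members, beside 0.165%, 0.257% and 1.33% of all genes in either direction. DESeq2 called 0 members in these 3 classes as well, and 6, 3 and 6 members had an unadjusted edgeR p under 0.05. In fibroblast-like and macrophage- or monocyte-like cells the median log2 fold change of the tested members was 0.30 and 0.59, beside 0.01 in each for all genes. In lymphatic endothelial-like cells it was 0.31 beside -0.003, and in T cell-like and Langerhans-like cells -0.20 and -0.18, beside 0.01 and 0.02. The other 6 tested classes had member medians between -0.03 and 0.09.

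Of the 35 members, all were tested in at least 1 class and 19 in all 11. Eno1 (enolase) and Pkm (pyruvate kinase) were called higher in 7 classes each, Gapdh and Mif in 6, and Pgk1, Pgam1 and Ldha in 5. Aldoa (aldolase A) and Tpi1 (triosephosphate isomerase) were called higher in 3. Apart from the cytokine gene Mif, these genes encode later steps of the pathway, from aldolase to lactate. The kinases that commit glucose to the pathway were called lower or not called. Pfkp, the platelet type of phosphofructokinase, was lower in 5 classes, Hk2 in 2, and Pfkfb3, which makes the phosphofructokinase activator fructose-2,6-bisphosphate, was lower in 4 classes and higher in 1. Members called in no class numbered 10, namely Hk1, Pfkl, Pfkm, Aldoc, Pdk1, Egln3, Bnip3, Bnip3l, Adm and Car9. The first 4 of these are isoenzymes of the pathway, and the last 6 are known HIF1A targets. Hk1 and Bnip3l were tested in all 11 classes, and Pfkl and Bnip3 in 9. Egln3 and Adm were tested in 6, Pdk1 in 4, Pfkm and Aldoc in 3 and Car9 in 1. For those 6 genes the lack of a call therefore covers only part of the classes.

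**Figure D2:**
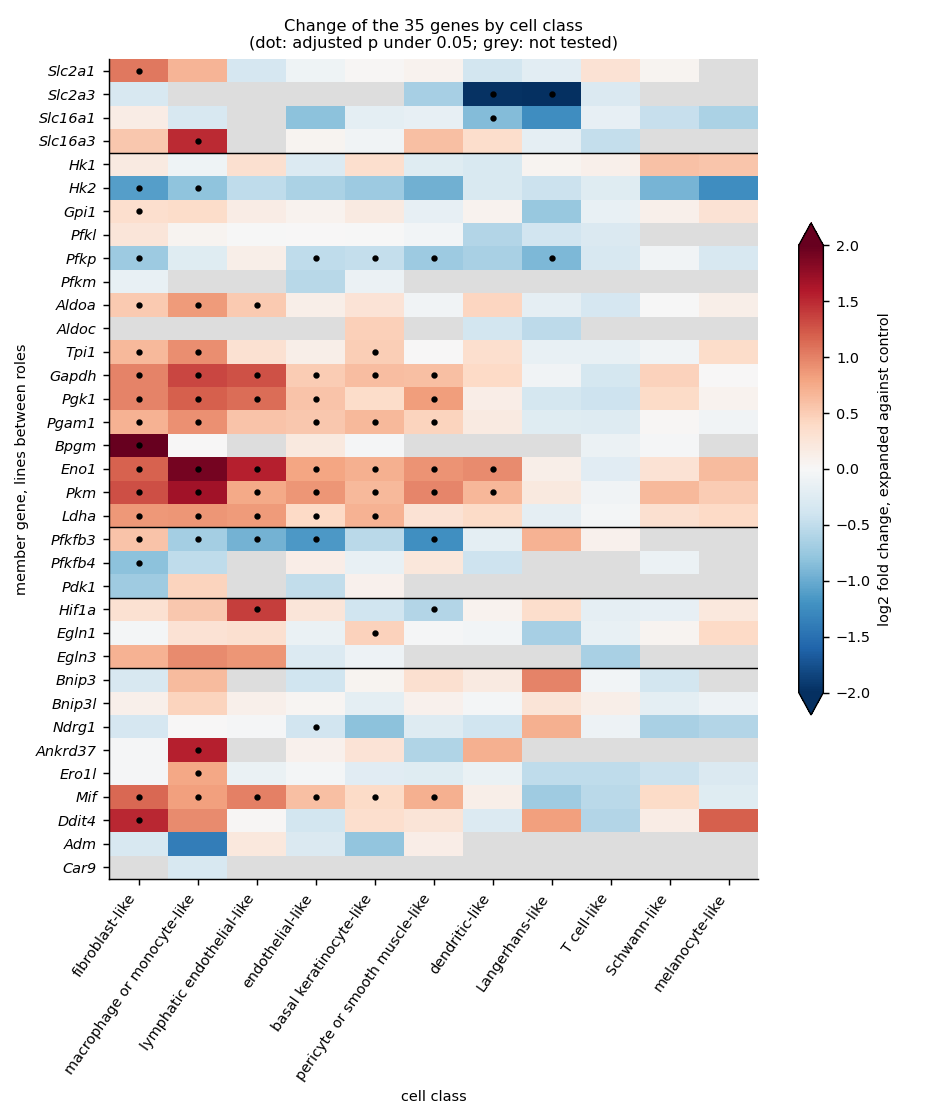
Log2 fold change (expanded over control) of each member in each of the 11 tested classes, ordered by role, with a dot on called changes and untested entries in grey. Eno1 and Pkm are called higher in 7 classes, and Pfkp is called lower in 5.

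In the sentences that follow, values per library are listed in the order day 1 round 1, day 1 round 2, day 2 round 1, day 2 round 2 and day 4. Fibroblast-like cells had the most called members, and 10 of 15 tested enzymes rose there. Pkm, which makes pyruvate, measured 209.7, 224, 131, 273 and 232 CPM in control and 398, 540.2, 711.5, 554.5 and 745 CPM in expanded libraries (log2 fold change 1.28, SE 0.20, adjusted p = 0.000922). Eno1 measured 29, 40.2, 40.2, 50.35 and 36.9 CPM in control and 82.1, 88.65, 122, 145 and 71.0 CPM in expanded libraries (log2 fold change 1.17, SE 0.14, adjusted p = 0.000296). For both genes every expanded library lay above every control library. The near-identical copy Eno1b, to which reads of Eno1 could be assigned, had at most 3.57 CPM in this class. Pgk1, the first ATP-yielding step, measured 57.4, 62.7, 54.4, 82.7 and 84.2 CPM in control and 116, 159, 157, 161 and 165 CPM in expanded libraries (log2 fold change 1.00, SE 0.14, adjusted p = 0.000435). Gapdh, the preceding enzyme, measured 243, 288, 255, 422 and 310.1 CPM in control and 431, 568.5, 858.5, 758.5 and 835 CPM in expanded libraries (log2 fold change 1.00, SE 0.16, adjusted p = 0.00103). Ldha measured 147, 165, 165, 251 and 212 CPM in control and 296, 364, 443, 399 and 413 CPM in expanded libraries (log2 fold change 0.87, SE 0.12, adjusted p = 0.000499). The arms did not overlap for these 3 genes either, and the lowest expanded value of each came from day 1 round 1. Smaller rises without overlap were called for Pgam1 (0.70), Tpi1 (0.65) and Aldoa (0.52), and Gpi1, the isomerase of glucose phosphate, rose by 0.34. The call of Gpi1 was lost in 4 of the 10 fits that each left out 1 library (highest adjusted p = 0.0954), and that of Tpi1 in the 2 fits without a day 4 library (0.0524). Day 4 has 1 library per arm, and day is a term of the fit. Without either day 4 library the other adds nothing to the difference between the arms. Those 2 fits are therefore nearly the same check, here and below.

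The member with the largest fold in fibroblast-like cells was Bpgm, the bisphosphoglycerate mutase best known from erythrocytes, where its product lowers the oxygen affinity of haemoglobin. It measured 10.6, 14.3, 9.85, 23.95 and 23.3 CPM in control and 37.95, 65.6, 200.1, 203 and 227.5 CPM in expanded libraries (log2 fold change 2.75, SE 0.33, adjusted p = 0.000289), a fold change of 6.72. Every expanded library lay above every control library, and day 1 lay below day 2 and day 4 in the expanded arm. Erythroid markers reached 79590 CPM in this class, in the expanded library of day 2 round 2, and most of those came from cluster 20, which the naming rule had placed among the fibroblast-like clusters. Without cluster 20 the same 17 members were called. In clusters 10 and 19, where erythroid markers summed to at most 32.3 CPM, Bpgm also rose, with log2 fold changes of 2.47 and 1.48.

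Among the transporters of fibroblast-like cells, Slc2a1 measured 11.5, 15.1, 9.61, 11.6 and 12.9 CPM in control and 10.9, 44.6, 27.1, 24.0 and 37.5 CPM in expanded libraries (log2 fold change 1.06, SE 0.30, adjusted p = 0.0194). It was higher in 4 of 5 pairs, and the exception, day 1 round 1, lay inside the control range. The call was lost when the day 4 control library, or the expanded library of day 1 round 2, day 2 round 1 or day 4, was left out (highest adjusted p = 0.0936). It was also lost when each cell was thinned to 2000 UMIs (log2 fold change 0.76, adjusted p = 0.0607). Slc16a1, Slc16a3 and Slc2a3 were not called in the class as a whole.

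Hk2, which traps glucose as its phosphate, fell in fibroblast-like cells. It measured 423, 293, 436, 181 and 194 CPM in control and 175, 163, 199, 156 and 109 CPM in expanded libraries (log2 fold change -1.10, SE 0.24, adjusted p = 0.00465). The arms overlapped, since the day 2 round 2 and day 4 control libraries lay inside the expanded range, but each expanded library lay below its own control. Within cluster 10 alone the log2 fold change of Hk2 was -0.68 (edgeR adjusted p = 0.0508), and within cluster 19 alone -0.11 (0.755), so Hk2 was called in neither. Pfkp fell without overlap (-0.72), and Pfkfb4, another isoenzyme that sets fructose-2,6-bisphosphate, fell by 0.82 on the log2 scale, with the day 4 pair nearly equal at 36.9 and 36.4 CPM. Pfkfb3 rose by 0.57 (adjusted p = 0.0481), a call lost in 8 of the 10 fits that left out 1 library (highest adjusted p = 0.181) and with each pair of libraries as a block (0.0574). In cluster 10 alone its log2 fold change was -0.22.

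Hypoxia genes outside glycolysis were split in fibroblast-like cells. Ddit4 measured 40.2, 36.6, 30.7, 80.0 and 58.0 CPM in control and 74.0, 168, 178, 121 and 253 CPM in expanded libraries (log2 fold change 1.5, SE 0.27, adjusted p = 0.00163). Mif measured 127, 124, 97.7, 176 and 175 CPM in control and 232, 288.5, 389.8, 373 and 495 CPM in expanded libraries (log2 fold change 1.15, SE 0.17, adjusted p = 0.000578). Both were higher in 5 of 5 pairs, and the arms overlapped for Ddit4 only in the day 1 round 1 expanded and day 2 round 2 control libraries. Hif1a itself measured 175, 135.5, 154, 135 and 158 CPM in control and 140.1, 309, 205.5, 184 and 211 CPM in expanded libraries (log2 fold change 0.30, SE 0.20, adjusted p = 0.262), and it was not called, with 4 of 5 pairs higher. The remaining members of this group, Ndrg1, Bnip3, Bnip3l, Ankrd37, Ero1l, Adm and Car9, were not called or, for 1 of them, not tested.

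**Figure D3:**
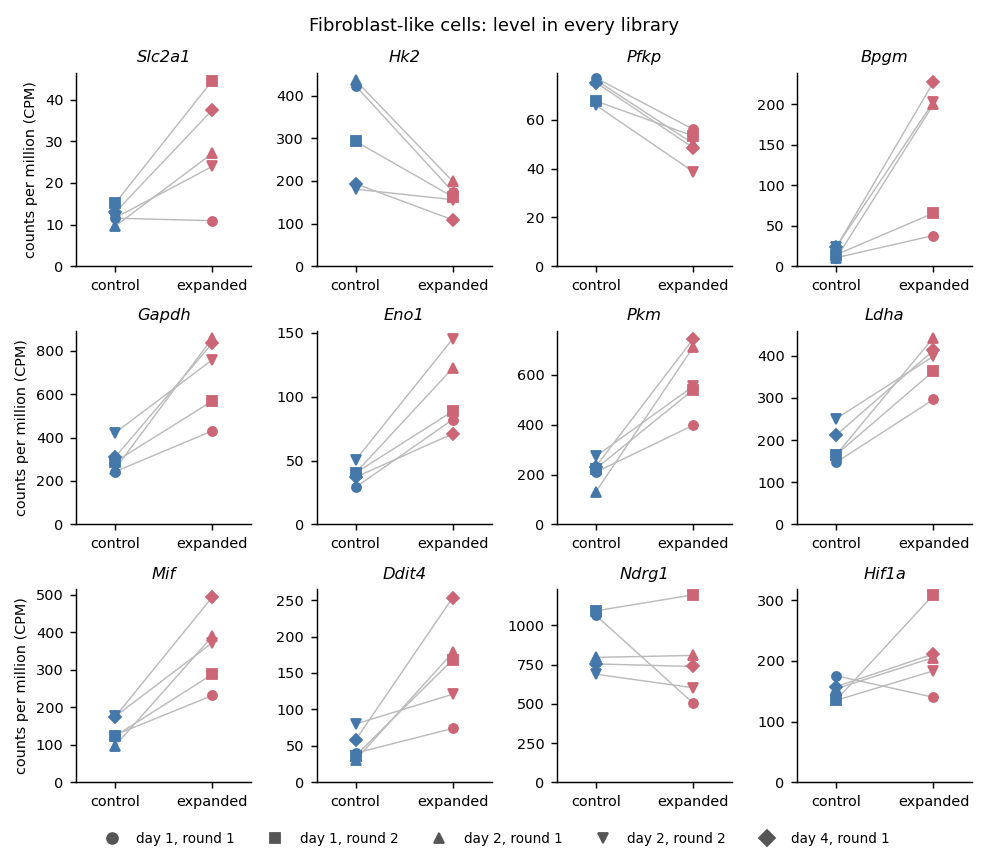
Levels of 12 members in fibroblast-like cells, in CPM on linear axes that start at 0, with 1 point per library, its shape giving day and round, and lines joining the control and expanded library of a pair. For Bpgm, Pkm, Eno1, Mif, Gapdh and Ldha every expanded point lies above every control point, and for Hk2 each line falls.

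The arms drew on different clusters of the fibroblast-like class. Clusters 0, 6 and 8 held 42.2%, 16.6% and 15.8% of its control cells, but 9.73%, 18% and 14.4% of its expanded cells. Clusters 10 and 19 held 8.9% and 4.79% of the control cells, and 27.5% and 18.6% of the expanded cells. Fibroblast markers summed to 70610 to 184400 CPM in the control and 29920 to 86070 CPM in the expanded sums of the class, and the median UMI count per cell was 10766 in control and 16277 in expanded libraries. With every cell thinned to 2000 UMIs, 15 of 28 members were called, beside 24.8% of all genes, and all 15 were among the 17.

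Within cluster 10 alone, 14 of 30 members were higher and 3 lower, beside 13.3% and 15.1% of all genes, and 15 of these 17 were called in the whole class. Eno1 rose by 1.26, Pkm by 1.28, Slc2a1 by 1.24 and Slc16a1 by 0.57 on the log2 scale within this cluster. Within cluster 19 alone, 6 of 28 were higher and 1 lower, beside 7.06% and 8.2% of all genes. There Hif1a rose by 1.12 (edgeR adjusted p = 0.000151), Slc16a1 by 1.04 and Ddit4 by 1.20, whereas Bnip3, a mitophagy receptor and HIF1A target, fell by 1.00. Tpi1 and Gpi1 had log2 fold changes of -0.08 and -0.07 there, and Pfkfb4 of 0.68, each opposite to the whole class. Pgk1 (0.07), Aldoa (0.03), Pgam1 (0.14), Eno1 (0.22), Ldha (0.27) and Gapdh (0.35) lost their calls in cluster 19, where they had log2 fold changes of 0.52 to 1.17 in the class. Hk2 (-0.11), Pfkp (-0.35), Slc2a1 (0.22) and Pfkfb3 (0.58) also lost their calls in cluster 19. Of the 7 calls in cluster 19, 4 were among the 17 of the class.

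A further cluster, number 7, with 949 control and 1022 expanded cells, had Tnn, Postn and Tnc among its leading genes and stayed unnamed, since its fibroblast markers had no clear lead over those of dermal papilla. Within it 8 of 31 members were higher and 0 lower (edgeR, with 15 at an unadjusted p under 0.05 in either direction), beside 3.6% and 4.46% of all genes. Slc16a1 rose by 1.68, Pkm by 1.14, Ddit4 by 1.09 and Mif by 0.94. Bpgm had a log2 fold change of 0.07 there (adjusted p = 0.913), and Hk2 one of 0.58 (adjusted p = 0.159), opposite to the fibroblast-like class. With the unnamed clusters 7 and 29 added to the class, 18 members were called, of which 16 were among the 17.

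**Figure D4:**
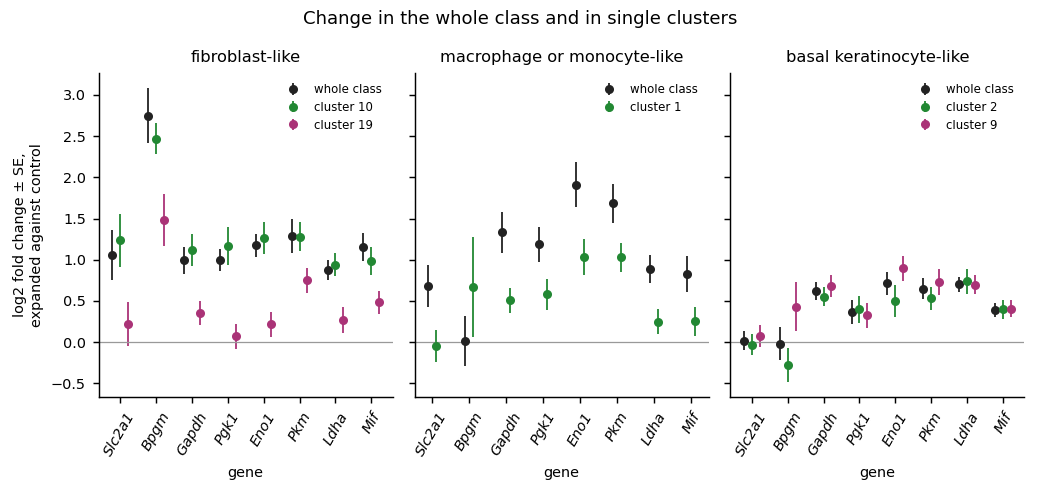
Log2 fold change (expanded over control) of 8 members in the whole class and in single clusters of 3 classes, with bars of 1 standard error. Bpgm lies above 0 in fibroblast-like clusters 10 and 19 as in the whole class, and most enzymes lie nearer 0 in macrophage- or monocyte-like cluster 1 than in its class.

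Of the 11 classes, macrophage- or monocyte-like cells had the largest log2 fold changes of Eno1, Pkm, Gapdh, Pgk1, Tpi1, Pgam1 and Ldha. For Gapdh, Pgk1 and Ldha the lead over the next class was smaller than its standard error. When the difference from fibroblast-like cells was itself tested, as given further below, Eno1 alone of these genes was called. Eno1 measured 36.4, 43.9, 41.4, 108 and 48.75 CPM in control and 161, 237, 224, 376 and 136 CPM in expanded libraries (log2 fold change 1.91, SE 0.27, adjusted p = 0.00226). Pkm measured 294, 361, 237, 489 and 305 CPM in control and 778, 1569, 1147, 1208 and 1100 CPM in expanded libraries (log2 fold change 1.68, SE 0.24, adjusted p = 0.00218). Gapdh measured 357, 349, 314, 919.6 and 539.9 CPM in control and 933, 1285, 1173, 1512 and 1660 CPM in expanded libraries (log2 fold change 1.33, SE 0.25, adjusted p = 0.0059). In all 3 genes the day 2 round 2 control library was the highest control, and still lay below every expanded library. Pgk1 measured 121, 124, 113, 189.5 and 123 CPM in control and 235, 456, 326, 350.2 and 276 CPM in expanded libraries (log2 fold change 1.19, SE 0.21, adjusted p = 0.00485). Tpi1 measured 84.7, 88.95, 76.5, 138.5 and 107 CPM in control and 195, 187, 196, 184 and 272 CPM in expanded libraries (log2 fold change 0.94, SE 0.15, adjusted p = 0.00359). Pgam1 measured 120.3, 96, 82.7, 219 and 151 CPM in control and 199.5, 266, 277, 254 and 363 CPM in expanded libraries (log2 fold change 0.92, SE 0.22, adjusted p = 0.0152). Only for Pgam1 did the arms overlap among these 3, again through the day 2 round 2 control. Ldha measured 149, 147, 143, 299.6 and 192 CPM in control and 341, 302, 386, 386 and 424.5 CPM in expanded libraries (log2 fold change 0.89, SE 0.17, adjusted p = 0.00612). Aldoa rose by 0.85, so that 8 of 14 tested enzymes were higher, and Hk2 was the 1 enzyme that was lower (-0.80, a call lost in 5 fits that left out 1 library, highest adjusted p = 0.0652).

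Lactate export and hypoxia genes also rose in macrophage- or monocyte-like cells. Slc16a3 measured 27.8, 30.2, 15.9, 52.05 and 38.4 CPM in control and 70.9, 107.5, 98.8, 111 and 114.5 CPM in expanded libraries (log2 fold change 1.49, SE 0.24, adjusted p = 0.00352). Ankrd37, a small ankyrin-repeat gene and HIF1A target, measured 0.560, 2.74, 2.76, 2.41 and 1.73 CPM in control and 5.54, 5.31, 4.12, 6.09 and 9.30 CPM in expanded libraries (log2 fold change 1.55, SE 0.40, adjusted p = 0.0204). The arms did not overlap for either gene, although Ankrd37 rests on few UMIs. Mif (0.83) and Ero1l (0.77) were higher in 5 of 5 pairs, and their calls were lost in 3 and 5 fits that left out 1 library (highest adjusted p = 0.0753 and 0.0826). Pfkfb3 was lower (-0.69, adjusted p = 0.0475), a call lost in 8 such fits (highest adjusted p = 0.125). Slc2a1 measured 28.9, 35.3, 15.9, 40.2 and 30.4 CPM in control and 32.7, 70.3, 47.3, 58.05 and 53.8 CPM in expanded libraries (log2 fold change 0.68, SE 0.25, adjusted p = 0.0739), higher in 5 of 5 pairs but not called (with each pair of libraries as a block, adjusted p = 0.021, and by DESeq2, 0.0485). Hif1a measured 122, 141.5, 143, 258 and 161 CPM in control and 117.5, 267, 282, 370 and 268 CPM in expanded libraries (log2 fold change 0.55, SE 0.24, adjusted p = 0.125), higher in 4 of 5 pairs and not called (with that block, adjusted p = 0.0455). Without the day 4 control library 8 members were called in this class, and without the day 4 expanded library, nearly the same fit, also 8. The 6 calls lost in each of these fits were Ankrd37, Ero1l, Hk2, Mif, Pfkfb3 and Pgam1, at adjusted p between 0.0534 and 0.0924.

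The cells behind these values differed between the arms. Cluster 4 held 78.9% of the control and 8.28% of the expanded cells of the class, and cluster 1 held 21.1% and 91.7%. Within cluster 1 alone, 1 of 29 members was called higher, beside 0.346% of all genes. That gene was Pkm (log2 fold change 1.03, adjusted p = 0.0175), and Eno1 had a log2 fold change of 1.03 with an adjusted p of 0.0524. Slc16a3 had a log2 fold change of -0.32 and Pfkfb3 of 0.07 within cluster 1, both opposite to the class. The neutrophil markers, 7 of 7 detected in each arm, summed to 65.7 to 139 CPM in control and 334 to 1854 CPM in expanded libraries of the class, beside 63410 to 155000 CPM in neutrophil-like cells themselves. Their part in the rise of Slc16a3 was not tested. The median UMI count per cell was 6324 in control and 11941 in expanded libraries.

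Eno1, Pkm, Gapdh, Pgk1 and Mif rose, and Pfkfb3 fell, in each of the 3 vascular classes. In lymphatic endothelial-like cells, Eno1 measured 15.9, 41.8, 19.1, 49.5 and 26.6 CPM in control and 73.5, 106, 135, 151 and 74.8 CPM in expanded libraries (log2 fold change 1.55, SE 0.23, adjusted p = 0.000898). Gapdh measured 483, 407, 353, 415 and 376 CPM in control and 880, 1114, 1127, 907 and 1268 CPM in expanded libraries (log2 fold change 1.28, SE 0.17, adjusted p = 0.000418). Hif1a measured 82.3, 70.4, 124, 155 and 104.5 CPM in control and 205, 153, 381, 463 and 353 CPM in expanded libraries (log2 fold change 1.38, SE 0.17, adjusted p = 0.00026). This was the only one of the 11 classes with a called rise of Hif1a, and the arms overlapped by 1 library, day 1 round 2, whose 153 CPM lay below the 155 CPM of the day 2 round 2 control. Pgk1 measured 87.6, 98.95, 114.5, 132 and 77.95 CPM in control and 154, 208, 277.5, 228 and 319.9 CPM in expanded libraries (log2 fold change 1.11, SE 0.19, adjusted p = 0.00258). Mif measured 141, 77.0, 124, 96.6 and 113 CPM in control and 203, 251, 228, 214 and 255.5 CPM in expanded libraries (log2 fold change 1.01, SE 0.18, adjusted p = 0.0031). Ldha measured 135, 138.5, 200.5, 182 and 143.5 CPM in control and 199, 278, 338, 332 and 371 CPM in expanded libraries (log2 fold change 0.85, SE 0.16, adjusted p = 0.00484). All 3 were higher in 5 of 5 pairs. Pkm measured 172.5, 158, 181, 159 and 95.7 CPM in control and 203, 242, 291, 262 and 361 CPM in expanded libraries (log2 fold change 0.76, SE 0.20, adjusted p = 0.0237). Its lowest control value was that of day 4, and the call was lost without either day 4 library or the day 2 round 2 control (highest adjusted p = 0.146). Aldoa rose by 0.52, a call lost in 7 of the 10 fits that left out 1 library (highest adjusted p = 0.189).

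Pfkfb3, which in endothelium supports vessel sprouting, fell in lymphatic endothelial-like cells, where it measured 45.1, 81.4, 38.2, 72.5 and 62.0 CPM in control and 17.5, 30.6, 25.4, 46.0 and 54.1 CPM in expanded libraries (log2 fold change -0.94, SE 0.26, adjusted p = 0.0281). It was lower in 5 of 5 pairs, and the call was lost in 4 fits that left out 1 library (highest adjusted p = 0.102). Slc2a1 measured 47.8, 41.8, 28.6, 29.9 and 24.8 CPM in control and 24.5, 26, 25.4, 36.6 and 29.9 CPM in expanded libraries (log2 fold change -0.34, SE 0.25, adjusted p = 0.421) and was not called. Fibroblast markers in this class summed to 1193 to 13130 CPM in control and 99.0 to 10480 CPM in expanded libraries, and their part in these values was not tested.

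In endothelial-like cells, Pfkfb3 measured 93.9, 67.4, 115.5, 74.2 and 93.6 CPM in control and 55.4, 46.7, 32.0, 35.5 and 39.5 CPM in expanded libraries (log2 fold change -1.15, SE 0.19, adjusted p = 0.00386), and no expanded library reached a control library. Pkm measured 345, 342, 267, 379 and 392 CPM in control and 597, 700.4, 723, 696.5 and 711 CPM in expanded libraries (log2 fold change 0.88, SE 0.12, adjusted p = 0.00154). Eno1 measured 62.3, 48.3, 64.4, 67.8 and 57.1 CPM in control and 132, 113, 96.0, 173 and 66.9 CPM in expanded libraries (log2 fold change 0.79, SE 0.18, adjusted p = 0.0155). Mif measured 140, 126, 102, 121 and 114 CPM in control and 244, 242, 171, 163.5 and 177 CPM in expanded libraries (log2 fold change 0.60, SE 0.11, adjusted p = 0.00592). Pkm and Mif did not overlap between the arms, and Eno1 overlapped through the day 4 expanded library. Gapdh measured 732, 702, 637, 644 and 635 CPM in control and 922, 1106, 988, 915 and 1187 CPM in expanded libraries (log2 fold change 0.50, SE 0.12, adjusted p = 0.0174). Ldha measured 280, 319.5, 345, 304 and 305 CPM in control and 405, 417, 482, 476 and 439.7 CPM in expanded libraries (log2 fold change 0.40, SE 0.12, adjusted p = 0.0398). Pgk1 and Pgam1 rose by 0.57 and 0.54 without overlap, and Pfkp and Ndrg1 fell by 0.51 and 0.38 with overlap. Of the 10 fits that left out 1 library, Ndrg1 lost its call in 9 (highest adjusted p = 0.115), Ldha and Pfkp in 8 (0.119 and 0.106), Pgam1 in 5 (0.0747), Gapdh and Pgk1 in 2 (0.0798 and 0.0635) and Eno1 in 1 (0.0518).

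Slc2a1, by which glucose enters endothelium, measured 90.3, 60.8, 47.9, 54.4 and 70.3 CPM in control and 50.7, 79.7, 73.8, 55.4 and 67.2 CPM in expanded libraries (log2 fold change -0.09, SE 0.18, adjusted p = 0.802). Hif1a measured 303.5, 276, 304, 316 and 421 CPM in control and 315, 338, 396, 506 and 529.8 CPM in expanded libraries (log2 fold change 0.24, SE 0.12, adjusted p = 0.23), higher in 5 of 5 pairs. Neither was called. Only 4 of the 10 calls of this class remained without the day 4 control library, and 4 without the day 4 expanded library, which is nearly the same fit. With cells thinned to 2000 UMIs, 2 of 23 members were called, beside 6.76% of all genes.

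Pericyte- or smooth muscle-like cells form the contractile wall of vessels. There Pfkfb3 measured 46.1, 36.9, 8.11, 46.5 and 37.3 CPM in control and 12.6, 17.5, 14.1, 19.5 and 20.4 CPM in expanded libraries (log2 fold change -1.22, SE 0.32, adjusted p = 0.019). The control library of day 2 round 1, at 8.11 CPM, stood far below the other controls and below every expanded library. Pkm measured 277, 250, 284, 345 and 265 CPM in control and 421, 436, 695, 745 and 795 CPM in expanded libraries (log2 fold change 0.97, SE 0.16, adjusted p = 0.00182). Eno1 measured 39.96, 37.9, 81.1, 44.5 and 35.4 CPM in control and 92.5, 61.2, 102, 158 and 62.1 CPM in expanded libraries (log2 fold change 0.90, SE 0.20, adjusted p = 0.00948). Pgk1 measured 95.3, 74.7, 116, 137 and 81.9 CPM in control and 140.2, 182, 227, 232 and 186 CPM in expanded libraries (log2 fold change 0.84, SE 0.14, adjusted p = 0.00193). Each of these 3 was higher in 5 of 5 pairs. Pfkp measured 106, 109.6, 127, 95.0 and 122.5 CPM in control and 64.5, 78.7, 60.9, 79.6 and 79.5 CPM in expanded libraries (log2 fold change -0.73, SE 0.14, adjusted p = 0.00467), with no overlap. Mif and Gapdh rose by 0.71 and 0.60, and Pgam1 by 0.44. Pgam1 lost its call in 6 fits that left out 1 library (highest adjusted p = 0.105), Pfkfb3 in 3 (0.0727), and Gapdh and Mif in 2 (0.0596 and 0.0761).

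Hif1a fell in pericyte- or smooth muscle-like cells, where it measured 289, 369, 257, 384 and 437.5 CPM in control and 174, 199.5, 263, 346 and 295 CPM in expanded libraries (log2 fold change -0.58, SE 0.18, adjusted p = 0.0385). The arms overlapped, and the call was lost in 8 such fits (highest adjusted p = 0.125) and with upper-quartile scaling (0.0517). Ldha measured 309, 301, 354, 292 and 291.5 CPM in control and 362, 352, 410, 466 and 457 CPM in expanded libraries (log2 fold change 0.29, SE 0.13, adjusted p = 0.126), and Slc2a1 measured 44.6, 35.9, 48.6, 45.5 and 28.2 CPM in control and 22.4, 35, 51.1, 54.4 and 62.1 CPM in expanded libraries (log2 fold change 0.07, SE 0.25, adjusted p = 0.88). Neither was called. Without the day 4 control library 4 members were called in this class, and without the day 4 expanded library, nearly the same fit, also 4.

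In basal keratinocyte-like cells 6 of 16 tested enzymes rose. The class joins cluster 2, with 62% of its expanded cells and Krt24, Krt15 and Lhx2, genes of the hair follicle bulge, among its leading genes, and cluster 9, led by Krt14 and Krt5. Cycling keratinocyte-like cells form a class of their own. Ldha measured 216, 222, 273, 330.5 and 291 CPM in control and 365, 404, 508, 519.7 and 470.4 CPM in expanded libraries (log2 fold change 0.70, SE 0.09, adjusted p = 0.00242). Eno1 measured 59.9, 59.3, 42.5, 62.6 and 54.5 CPM in control and 98.6, 103, 109.5, 131 and 65.9 CPM in expanded libraries (log2 fold change 0.71, SE 0.14, adjusted p = 0.00864). Pkm measured 264, 254, 208, 364.5 and 299 CPM in control and 375, 459.8, 458.5, 525.5 and 489 CPM in expanded libraries (log2 fold change 0.65, SE 0.13, adjusted p = 0.00978). None of the 3 overlapped between the arms. Gapdh measured 431, 420.1, 461, 656 and 611 CPM in control and 605, 726, 915, 895 and 1048 CPM in expanded libraries (log2 fold change 0.62, SE 0.11, adjusted p = 0.0059). Pgam1 measured 107, 126, 67.2, 194.5 and 141 CPM in control and 150.3, 176, 250.3, 265.5 and 255 CPM in expanded libraries (log2 fold change 0.65, SE 0.20, adjusted p = 0.0457). Tpi1 measured 143, 143, 197, 239 and 160.3 CPM in control and 247, 227, 269, 292 and 243 CPM in expanded libraries (log2 fold change 0.49, SE 0.10, adjusted p = 0.00971). These 3 overlapped, but each was higher in 5 of 5 pairs. Egln1, the main oxygen-sensing hydroxylase and itself a HIF1A target, measured 51.6, 44.9, 33.6, 49.65 and 58.4 CPM in control and 66.65, 66.1, 62.7, 67.5 and 90.5 CPM in expanded libraries (log2 fold change 0.46, SE 0.10, adjusted p = 0.0168), without overlap and highest at day 4. Its call was lost without either day 4 library (highest adjusted p = 0.0648), and that of Pgam1 in 7 of the 10 fits that left out 1 library (0.12). Mif rose by 0.39.

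Pfkp measured 133, 146, 80.6, 108 and 141.5 CPM in control and 79.9, 95.3, 86.25, 90.6 and 109 CPM in expanded libraries (log2 fold change -0.48, SE 0.13, adjusted p = 0.0308) in basal keratinocyte-like cells, lower in 4 of 5 pairs, and the call was lost in 8 fits that left out 1 library (highest adjusted p = 0.0926). Slc2a1 measured 98.65, 91.5, 87.3, 94.2 and 80.9 CPM in control and 97.6, 104, 79.5, 84.3 and 116 CPM in expanded libraries (log2 fold change 0.02, SE 0.11, adjusted p = 0.938), and Hif1a measured 267, 304, 177, 122 and 243 CPM in control and 147, 179, 149, 162 and 220.4 CPM in expanded libraries (log2 fold change -0.40, SE 0.18, adjusted p = 0.153). Neither was called. Within cluster 2 alone, 2 of 32 members, Gapdh (0.55) and Ldha (0.74), were higher and 0 lower (edgeR, with 12 at an unadjusted p under 0.05 in either direction), beside 0.733% and 0.377% of all genes. Within cluster 9 alone, 8 of 30 were higher and 6 lower, beside 9.14% and 11.1%. The 6 that fell in cluster 9 were Pfkfb3 (-1.53), Ndrg1 (-1.26), Hk2 (-0.94), Adm (-0.85), Hif1a (-0.75) and Pfkp (-0.60). The 8 that rose were Eno1, Pgam1, Pkm, Ldha, Gapdh, Tpi1, Mif and Egln1.

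Slc2a3, the glucose carrier GLUT3, fell in both antigen-presenting classes. In dendritic-like cells, Slc2a3 measured 63.9, 72.6, 77.2, 55.1 and 53.8 CPM in control and 40.3, 29.9, 11.4, 1.74 and 18.7 CPM in expanded libraries (log2 fold change -1.98, SE 0.36, adjusted p = 0.00579), and the arms did not overlap. Macrophage or monocyte markers in the dendritic-like class summed to 6048 to 10660 CPM (median 9934) in control and 3441 to 6847 CPM (median 3929) in expanded libraries. Their part in the changes of this class was not tested. The Langerhans-like class is 1 cluster, led by Ccl22, Cd207, Tbc1d4, Ccr7 and Il4i1, so that the Langerhans marker Cd207 stands beside Ccr7, a receptor of migrating dendritic cells. Slc2a3 there measured 19.3, 21.5, 21.1, 24.7 and 25.4 CPM in control and 5.39, 1.89, 1.54, 1.71 and 1.08 CPM in expanded libraries (log2 fold change -3.50, SE 0.37, adjusted p = 0.00176), a fold change of 0.0885. It rests on 100 UMIs in the 5 control and 10 UMIs in the 5 expanded libraries, and the highest expanded value, from day 1 round 1, lay below every control.

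Dendritic-like cells also changed in 3 other members. Eno1 measured 64.4, 64.1, 78.5, 128 and 91.5 CPM in control and 169, 134, 212, 363.5 and 111.5 CPM in expanded libraries (log2 fold change 0.94, SE 0.22, adjusted p = 0.0148). Pkm measured 412.5, 409, 271, 494 and 432.5 CPM in control and 675, 752, 776, 815 and 683 CPM in expanded libraries (log2 fold change 0.67, SE 0.15, adjusted p = 0.0132). Slc16a1 measured 31.05, 27.85, 27.2, 19.8 and 27.95 CPM in control and 31.6, 17.3, 13.1, 10.4 and 14.2 CPM in expanded libraries (log2 fold change -0.86, SE 0.22, adjusted p = 0.0214), a call lost in 4 fits that left out 1 library (highest adjusted p = 0.0718). The rises of Eno1 and Pkm were present in 5 of 5 pairs. Gapdh measured 689, 692.5, 629, 1164 and 999 CPM in control and 1101, 1131, 1184, 1484 and 1372 CPM in expanded libraries (log2 fold change 0.40, SE 0.14, adjusted p = 0.0751). Ldha measured 226, 202, 209, 427 and 353 CPM in control and 326.5, 301, 467, 494 and 532 CPM in expanded libraries (log2 fold change 0.38, SE 0.16, adjusted p = 0.11). Both were higher in 5 of 5 pairs and not called. Fitting each pair of libraries as a block, 7 of 29 members were called, without a share of all genes to set beside them. Slc2a1 measured 70.6, 49.8, 37.7, 41.7 and 38.9 CPM in control and 55.1, 67.75, 35.8, 26.95 and 32.2 CPM in expanded libraries (log2 fold change -0.38, SE 0.15, adjusted p = 0.095), and Hif1a measured 64.2, 56.7, 56.2, 83.2 and 72.6 CPM in control and 56.4, 79.7, 114, 91.3 and 70.3 CPM in expanded libraries (log2 fold change 0.07, SE 0.16, adjusted p = 0.766), neither called.

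In Langerhans-like cells no enzyme was called higher. Pfkp measured 338.5, 362, 298, 525 and 387 CPM in control and 300.3, 213, 283, 299.9 and 136.5 CPM in expanded libraries (log2 fold change -0.90, SE 0.20, adjusted p = 0.0344), a call lost in 8 fits that left out 1 library (highest adjusted p = 0.126). Gapdh measured 645, 669, 712, 1119 and 1339 CPM in control and 751.5, 699.7, 972, 1126 and 1402 CPM in expanded libraries (log2 fold change -0.08, SE 0.14, adjusted p = 0.793). Ldha measured 190.2, 218, 214, 295 and 406 CPM in control and 399, 173.5, 259.8, 281 and 212 CPM in expanded libraries (log2 fold change -0.18, SE 0.26, adjusted p = 0.72). Hif1a measured 41.9, 51.9, 34.3, 46.0 and 41.2 CPM in control and 41.75, 44.3, 85.3, 96.0 and 73.7 CPM in expanded libraries (log2 fold change 0.36, SE 0.23, adjusted p = 0.362), and Slc2a1 measured 33.85, 33.3, 34.3, 31.5 and 21.02 CPM in control and 28.3, 36.8, 26.9, 25.7 and 33.6 CPM in expanded libraries (log2 fold change -0.21, SE 0.22, adjusted p = 0.613). These 4 were not called.

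In T cell-like cells Gapdh measured 962, 922, 1164, 1241 and 1479 CPM in control and 822, 883, 1034, 818 and 1242 CPM in expanded libraries (log2 fold change -0.35, SE 0.11, adjusted p = 0.286), lower in 5 of 5 pairs but not called. Ldha measured 347, 384, 466, 451 and 537 CPM in control and 303, 557.5, 475, 359.7 and 547 CPM in expanded libraries (log2 fold change -0.04, SE 0.17, adjusted p = 0.973). Slc2a1 measured 41.5, 39.9, 29.9, 32.9 and 34.4 CPM in control and 72.7, 50.6, 33.4, 46.6 and 34.5 CPM in expanded libraries (log2 fold change 0.29, SE 0.17, adjusted p = 0.566), and Hif1a measured 195, 293.5, 323.5, 359 and 371 CPM in control and 156, 307, 333, 368 and 286 CPM in expanded libraries (log2 fold change -0.18, SE 0.18, adjusted p = 0.772). With each pair of libraries as a block, 1 member was called, Mif, at a log2 fold change of -0.55. Fibroblast markers in T cell-like cells, where they are foreign, summed to 940.5 to 1933 CPM in control and 30.5 to 542 CPM in expanded libraries. Their summed level also had a lower median in the expanded libraries of each other class tested, and the part of these transcripts in the fold changes was not tested.

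In Schwann-like cells, with 4 control libraries, Gapdh ranged from 172 to 376 CPM in control and 290.4 to 492 CPM in expanded libraries, and its log2 fold change was 0.46 (adjusted p = 0.515). Ldha ranged from 136 to 205 CPM in control and 190.2 to 239 CPM in expanded libraries there, with a log2 fold change of 0.31 (adjusted p = 0.593). Both were higher in 4 of 4 pairs. In melanocyte-like cells, with 4 libraries in each arm, Gapdh ranged from 283 to 488 CPM in control and 313 to 469 CPM in expanded libraries, and Ldha from 142 to 277 CPM in control and 193 to 322 CPM in expanded libraries. Their adjusted p-values were 0.992 and 0.454.

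Summed over the 16 enzymes, the level per library shows the sizes involved. Fibroblast-like cells went from 1721 ± 128 to 3109 ± 557 CPM, and macrophage- or monocyte-like cells from 2229 ± 531 to 4767 ± 656 CPM (mean ± SD, n = 5 each). Lymphatic endothelial-like cells went from 1656 ± 172 to 3113 ± 472 CPM, endothelial-like cells from 2490 ± 84.9 to 3581 ± 172, and basal keratinocyte-like cells from 2395 ± 314 to 3384 ± 380. Pericyte- or smooth muscle-like cells went from 2619 ± 260 to 3595 ± 442 CPM and dendritic-like cells from 3040 ± 687 to 4318 ± 599. Langerhans-like cells measured 3177 ± 780 and 3183 ± 454 CPM, and T cell-like cells measured 3968 ± 534 and 3542 ± 438. T cell-like cells had the highest control sum of the 11 tested classes. Every expanded library lay above every control library in the fibroblast-like, macrophage- or monocyte-like, 2 endothelial-like, basal keratinocyte-like and pericyte- or smooth muscle-like classes. These sums are descriptions of a chosen list and carry no test.

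**Figure D5:**
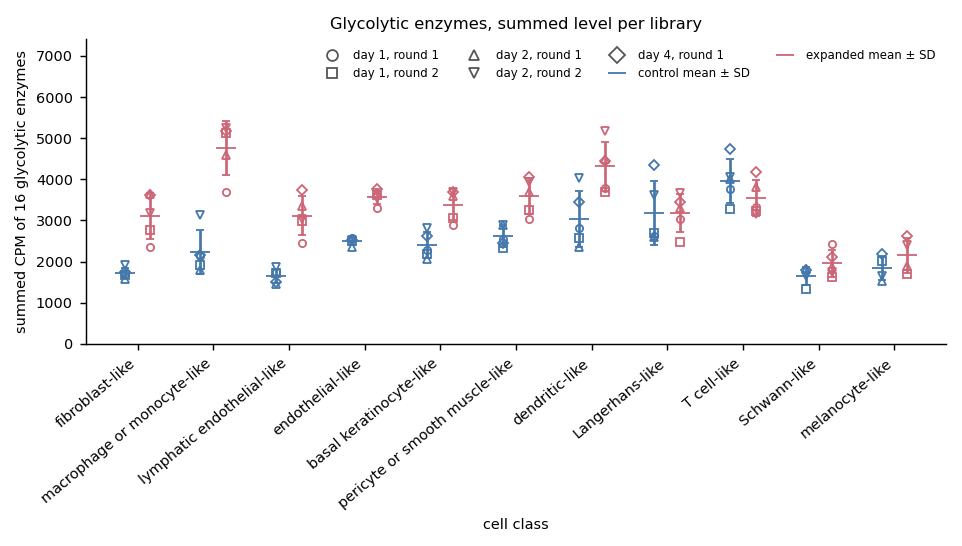
Summed CPM of the 16 glycolytic enzymes in each tested class, with 1 point per library and the mean ± SD of each arm, control in blue and expanded in red. Macrophage- or monocyte-like cells average 4767 CPM in the expanded arm and 2229 in the control arm, while Langerhans-like cells average 3183 and 3177.

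By day, the change was called most often in fibroblast-like cells at the days with 2 libraries per arm. At day 1, 4 of 33 members were higher and 2 lower, beside 4.05% and 4.25% of all genes. The 4 were Bpgm (1.81), Eno1 (1.05), Pgk1 (0.94) and Ldha (0.82), and Pfkfb4 (-0.96) and Bnip3 (-0.65) fell. At day 2, 9 of 33 were higher and 1 lower, beside 3.36% and 4.22% of all genes. Bpgm then stood at 3.53, Pkm at 1.62, Eno1 at 1.52 and Mif at 1.45. At day 4, with 1 library per arm and the spread taken from the other days, Bpgm alone was called (3.07), so that 1 of 33 was higher and 0 lower (edgeR, with 12 at an unadjusted p under 0.05), beside 0.36% and 0.164%.

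The difference between days was itself tested in the 9 classes with all 10 libraries. For day 2 against day 1 edgeR called 0 members in each class, with a lowest adjusted p of 0.455 and at most 3 members a class at an unadjusted p under 0.05. For day 4 against day 1 it also called 0, with a lowest adjusted p of 0.696 and at most 3 members a class at an unadjusted p under 0.05. Over all genes the same tests called 0% in each class, except for 0.0106% (1 of 9413 genes) in endothelial-like cells for day 2 against day 1, so the zeros are those of the whole table. Among the other classes, day 2 called 1 member in each of 3 classes. Slc2a3 fell by 3.35 in dendritic-like cells, beside 0.555% of all genes called in either direction, Hif1a rose by 1.44 in lymphatic endothelial-like cells, beside 0.433%, and Pkm rose by 1.06 in endothelial-like cells, beside 1.13%. In pericyte- or smooth muscle-like cells Pkm rose by 1.15 at day 2 and 1.44 at day 4, and Slc16a3 by 1.55 at day 2, beside 3.24% and 2.37% of all genes at the 2 days. In basal keratinocyte-like cells at day 1, Ldha rose by 0.70, while Slc16a1, Hif1a and Pfkp fell by 0.90, 0.92 and 0.79, beside 4.74% of all genes. Fitting each pair of libraries as a block raised these counts. It called 9 members (6 lower) in place of 4 in basal keratinocyte-like cells at day 1, and 3, 5 and 2 in place of 0, 2 and 1 in pericyte- or smooth muscle-like cells at days 1, 2 and 4. At days 1 and 2 it called 3 and 4 in place of 0 and 1 in dendritic-like cells, and 3 and 3 in place of 0 and 1 in endothelial-like cells. The shares of all genes called with the block are not given here, so this rise says nothing particular about the members.

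Hashtags allowed the same comparison over single mice in 8 libraries, in which the mice of an arm and round shared 1 reaction. The p-values of this comparison take mice as the replicates and do not measure the spread between libraries. Within a round, an effect of the reaction cannot be told apart from expansion. In fibroblast-like cells, with 14 control and 9 expanded mice, 15 of 28 members were higher and 2 lower, beside 24.4% and 20.7% of all genes, and 16 of these 17 were also called over libraries. Pkm ranged from 109 to 333 CPM (median 248) over control and 469 to 885 CPM (median 674) over expanded mice. Mif, with the smallest adjusted p of the members there (edgeR, 4.8e-09, log2 fold change 1.27), ranged from 92.75 to 218 CPM (median 167) over control and 298 to 530.5 CPM (median 387) over expanded mice. Bpgm ranged from 0 to 36.5 CPM (median 18.6) over control and 24.1 to 261 CPM (median 134) over expanded mice. In macrophage- or monocyte-like cells, with 14 and 12 mice, 17 of 26 were higher and 3 lower, beside 23.8% and 22.8%. Slc2a1 (0.69), Hif1a (0.64), Ddit4 (0.97), Bnip3 (0.89) and Bnip3l (0.60) rose over mice and had not been called over libraries.

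Basal keratinocyte-like cells, with 10 control and 9 expanded mice, had 7 of 25 members higher and 4 lower, beside 14.8% and 16.6% of all genes. The 4 lower were Ndrg1 (-1.27), Hk2 (-0.85), Pfkp (-0.67) and Hif1a (-0.52). Dendritic-like cells, with 14 and 9 mice, had 6 of 27 higher and 2 lower, beside 18.6% and 19.2%. Slc2a3 fell there by 2.12 and Slc16a1 by 1.19. In endothelial-like cells, with 6 and 5 mice, 2 of 23 were higher and 1 lower, beside 3.24% and 5.34%. In T cell-like cells, with 14 and 12 mice, edgeR called 0 of 24 higher (DESeq2 0) and 3 lower, with 7 at an unadjusted p under 0.05, beside 1.46% and 1.49% of all genes. The 3 were Gapdh (-0.35), Mif (-0.47) and Ddit4 (-0.67). These 3 genes rose in fibroblast-like cells over mice, by 1.14, 1.27 and 1.29. The make-up of the T cell-like class differed between the arms. Cluster 30, led by Cd8a, held 10.9% of its control and 22.3% of its expanded cells. Cluster 25, with Foxp3 among its leading genes, held 22.2% and 15.1%. The part of this shift in the 3 falls was not tested.

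Whether the change differed between fibroblast-like cells and other classes was tested with limma on the 5 pair differences. Against T cell-like cells, 11 of 28 members changed more upwards in fibroblast-like cells and 1 less, beside 8.82% and 5.2% of all genes. The largest differences were those of Bpgm (2.86), Ddit4 (2.10), Mif (1.71), the hydroxylase Egln3 (1.51), Pgk1 (1.42) and Eno1 (1.4). Against Langerhans-like cells 9 of 26 were higher and 1 lower, beside 5.61% and 2.06%, led by Slc2a3 (2.38) and Mif (1.89). Against dendritic-like cells 6 of 28 were higher and 2 lower, beside 8.44% and 6%, among them Ddit4 (1.82) and Slc2a1 (1.32).

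Against macrophage- or monocyte-like cells the difference had both signs, with 2 of 31 members higher and 4 lower in fibroblast-like cells, beside 9.68% and 6.49% of all genes. Bpgm (2.81) and Pfkfb3 (1.25) changed more upwards in fibroblast-like cells, and Slc16a3 (-1.0), Bnip3 (-0.90), Ero1l (-0.79) and Eno1 (-0.75) did so in macrophage- or monocyte-like cells. Against pericyte- or smooth muscle-like cells 3 of 29 were higher and 1 lower, beside 3.5% and 2.86%. Leaving out a pair removed all calls against T cell-like, dendritic-like and pericyte- or smooth muscle-like cells, whichever pair it was. For Langerhans-like cells between 0 and 15 calls were left, and for macrophage- or monocyte-like cells between 0 and 5. Shares of all genes called with a pair left out are not given here, so these counts say nothing particular about the members. Against basal keratinocyte-like, endothelial-like and lymphatic endothelial-like cells limma called 0 members, with 13, 13 and 5 at an unadjusted p under 0.05. It called 0% of all genes there too, that is, 0 of 10170, 9047 and 6305, so these zeros say nothing particular about the members.

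Other genes of these pathways, listed by function rather than by how they moved, were read in the same fits. In fibroblast-like cells, 6 of 28 other HIF genes were higher and 9 lower, beside 17.7% and 17.6% of all genes, the shares against which the other counts of this paragraph also stand. Epas1, which encodes HIF2A, rose by 1.98, Stc2 by 1.37, Hmox1, haem oxygenase, by 1.31 and Fam162a by 1.13. The collagen prolyl hydroxylase P4ha2 fell by 1.58, with P4ha1 and the lysyl hydroxylase Plod1 falling by 0.75 and 0.78. These are enzymes of collagen maturation, and fibroblast markers, collagens among them, were lower in the same sums. The pentose phosphate pathway had 3 of 8 higher and 0 lower, with Pgd at 1.03, Tkt at 0.68 and Taldo1 at 0.59. The list on entry of pyruvate into mitochondria had 5 of 11 higher and 0 lower, led by the kinase Pdk3 (0.68) and the carrier Mpc1 (0.56). It mixes carriers with Pdk kinases, which keep pyruvate out of the citric acid cycle, so its count gives no direction for this step. The median log2 fold changes of these lists were 0.13 for the other HIF genes, 0.27 for the pentose phosphate pathway and 0.05 for pyruvate entry, beside 0.01 for all genes. Of the other glycolysis genes, 1 of 9 was higher, Tigar (0.74), and 1 lower, the monocarboxylate carrier Slc16a7 (-1.65).

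In macrophage- or monocyte-like cells 1 of 22 other HIF genes was higher and 2 were lower, beside 9.92% and 12.6% of all genes, with Hmox1 at -2.19, opposite in sign to fibroblast-like cells, and 2 of 8 pentose phosphate genes higher, Taldo1 at 0.99 and Rpe at 0.55. Dendritic-like cells had 0 of 17 other HIF genes higher and 5 lower (edgeR, with 9 at an unadjusted p under 0.05), beside 8.67% and 9.8% of all genes, with Hmox1 at -2.74 and Vegfa, the angiogenic factor, at -1.47. Angptl4, a secreted lipase inhibitor, fell in endothelial-like (-2.31), pericyte- or smooth muscle-like (-1.54) and basal keratinocyte-like cells (-1.48). Pdk4, which keeps pyruvate out of the citric acid cycle, fell in basal keratinocyte-like (-1.61) and endothelial-like cells (-1.14). In basal keratinocyte-like cells 1 of 25 other HIF genes was higher and 2 lower, beside 7.31% and 7.36% of all genes. Endothelial-like cells had 0 of 25 higher and 2 lower (edgeR, with 10 at an unadjusted p under 0.05), beside 5.5% and 6.66%. Pericyte- or smooth muscle-like cells had 0 of 20 higher and 2 lower (edgeR, with 4 at an unadjusted p under 0.05), beside 8% and 11.3%.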

How the data were processed

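UMI counts per gene and cell had been deposited as filtered 10x matrices, made with Cell Ranger 6.1.2 on mm10 per the submitters' processing notes, and hashtag counts likewise. Cells needed 200 genes, 500 UMIs and at most 10% mitochondrial counts, and Scrublet doublets were removed. Cells were clustered with scanpy 1.11.5 (2000 variable genes without members or pathway genes, 30 components, Leiden resolution 1). Clusters were named from at least 3 markers. Counts were summed per class and library (at least 20 cells, and 4 libraries per arm) and tested with edgeR 4.0.16 (TMM, filterByExpr, day as a term), with limma 3.58.1 for differences between classes. Mice came from HTODemux in Seurat 5.3.0. Alternatives included DESeq2 1.42.0. The scripts were tested on simulated data. The members and lists were chosen with earlier results of these data known. Values per library were given for called members, up to 8 per class by absolute change, and always for Slc2a1, Hif1a, Gapdh and Ldha. The sequencing round and day in the labels pair the libraries. Deviations from the arm and day mean correlated at 0.0242 to 0.328 between paired libraries over 18 class and day combinations. In the non-immune classes hashtags assigned only part of the cells to a mouse.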

Additional observations from a re-analysis of the deposited data

Results flagged for a closer look

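Single libraries stood apart from the others of their arm in 18 of 206 groups of 4 or 5 libraries, by the gap to the nearest library against the whole range. Chance would give about 1 in 20 if the libraries of a group were alike apart from noise. They differ in day, and the groups share the same libraries, so the 2 rates are no test of an excess. In macrophage- or monocyte-like cells the day 2 round 2 control library was high for Eno1 (108.3 CPM), Pgk1 (189.5 CPM) and Hif1a (258 CPM), and low for Pfkfb3 (51.85 CPM, with the others at 73.78 to 79.84). In pericyte- or smooth muscle-like cells the day 2 round 1 control library was high for Eno1 (81.06 CPM) and Ldha (354 CPM) and low for Pfkfb3 (8.106 CPM). Tpi1 was high in the day 4 expanded library in fibroblast-like (214 CPM) and macrophage- or monocyte-like cells (272.1 CPM), as were Pfkfb4 in fibroblast-like cells (36.43 CPM) and Egln1 in basal keratinocyte-like cells (90.53 CPM). The day 4 control library was high for Hif1a in endothelial-like cells (420.8 CPM), and low for Pkm in lymphatic endothelial-like cells (95.67 CPM) and Slc2a1 in Langerhans-like cells (21.02 CPM). Aldoa was high in the day 2 round 2 control of lymphatic endothelial-like cells (353.1 CPM). The day 1 round 1 expanded library was low for Pgk1 in fibroblast-like cells (116.2 CPM) and Pkm in endothelial-like cells (597.3 CPM), and high for Slc2a3 in Langerhans-like cells (5.387 CPM).

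The change with expansion was compared between fibroblast-like cells and another class by limma on the pair differences. Against T cell-like and Langerhans-like cells 12 of 28 and 10 of 26 members were called, beside 14% and 7.67% of all genes. For dendritic-like and macrophage- or monocyte-like cells these were 8 of 28 and 6 of 31, beside 14.4% and 16.2%. Pericyte- or smooth muscle-like cells had 4 of 29, beside 6.36%. Leaving out any 1 pair left 0 calls against T cell-like, dendritic-like and pericyte- or smooth muscle-like cells. It left 0 to 15 against Langerhans-like and 0 to 5 against macrophage- or monocyte-like cells. The shares of all genes called with a pair left out are not given here.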

How the results depend on the processing

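Over 103 gene results, called or not, and 1884 alternatives, 1639 kept their side of the threshold, 220 lost the call and 18 gained it. Changes of sign between uncalled fits count among the 1639. A further 7 changed sign with a call in the main or the alternative fit. These 7 came in single clusters, an alternative chosen after seeing the data: in fibroblast-like cluster 19 Gpi1 (-0.067), Tpi1 (-0.081) and Pfkfb4 (0.675), in cluster 10 Pfkfb3 (-0.219), in unnamed cluster 7 Hk2 (0.584), and in macrophage- or monocyte-like cluster 1 Pfkfb3 (0.067) and Slc16a3 (-0.322). Called members numbered 7 in fibroblast-like cluster 19, 8 in unnamed cluster 7, 1 in macrophage- or monocyte-like cluster 1, and 2 and 14 in basal keratinocyte-like clusters 2 and 9.

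With cells thinned to 2000 UMIs, 4 of 26 members were called in basal keratinocyte-like cells, beside 4.55% of all genes. Endothelial-like cells had 2 of 23 called, beside 6.76%. In lymphatic endothelial-like and pericyte- or smooth muscle-like cells 5 of 17 and 5 of 14 were called, beside 8.04% and 22.4%. Langerhans-like cells had 1 of 14 called, beside 4.63%. Dendritic-like cells at day 2 had 0 of 22 called, beside 0.422%, and lymphatic endothelial-like cells at day 1 had 1 of 17, beside 0.281%. Thinning left 0 differences from fibroblast-like cells against dendritic-like, macrophage- or monocyte-like and pericyte- or smooth muscle-like cells, beside 0%, 2.86% and 3.93% of all genes. Against Langerhans-like cells it left 6 of 14, beside 9.22%. A prior count of 0.5 left 0 against Langerhans-like and 0 against pericyte- or smooth muscle-like cells. Without the filter on low counts, 6 members were called in Langerhans-like, 2 in melanocyte-like and 1 in T cell-like cells. DESeq2 called 5 of 27 in Langerhans-like cells, beside 8.67% of all genes. The mitochondrial limit of 5% gave 1 in melanocyte-like cells, and the hashtag ratio rule gave 5 over mice in endothelial-like cells. Apart from thinning and DESeq2, shares of all genes are not given for these alternatives. Their counts therefore say nothing particular about the members.

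With the replicate block (the day-and-round pairing), 7 members were called in dendritic-like and 1 in T cell-like cells. By day, the block gave 9 in basal keratinocyte-like cells at day 1, 3 and 4 in dendritic-like and 3 and 3 in endothelial-like cells at days 1 and 2, and 2 and 1 in lymphatic endothelial-like cells at days 2 and 4. It gave 1 and 2 in macrophage- or monocyte-like cells at days 1 and 2, 3, 5 and 2 in pericyte- or smooth muscle-like cells at days 1, 2 and 4, and 1 in T cell-like cells at day 2. The block moved no other count of calls by over 1.5 times. Shares of all genes called with the block are not given here, so these counts say nothing particular about the members.

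With 1 library left out, the called members ranged from 13 to 19 in fibroblast-like, 8 to 18 in macrophage- or monocyte-like, 6 to 12 in basal keratinocyte-like, 7 to 10 in lymphatic endothelial-like, 4 to 8 in endothelial-like, 4 to 9 in pericyte- or smooth muscle-like, 3 to 7 in dendritic-like, 1 to 6 in Langerhans-like and 0 to 1 in melanocyte-like cells, and stayed at 0 in T cell-like and Schwann-like cells. With 1 pair left out, differences from fibroblast-like cells ranged from 0 to 15 against Langerhans-like and 0 to 5 against macrophage- or monocyte-like cells, and were 0 to 0 against dendritic-like, T cell-like and pericyte- or smooth muscle-like cells. Shares of all genes called with a library or pair left out are not given here, so these ranges say nothing particular about the members. The cause of these changes was not tested, apart from the fewer libraries and genes that some of the alternatives hold. Low UMI counts limit Ankrd37, Car9 and Slc2a3.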
